A study of Bos taurus with 20 samples.

Results

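Of 10 histone acetyltransferases, histone deacetylases and the Sin3 scaffold examined in bovine morulae, 8 were measured. These were the deacetylases HDAC1, HDAC2, HDAC3, HDAC4 and SIRT1, the scaffold protein SIN3A, and the acetyltransferases CREBBP and KAT2A. Each was represented by 1 probe set that carries that symbol alone in the annotation of the array, among 26773 probe sets in all, and these 8 were among 18010 genes with such a probe set. No probe set carried EP300 or KAT2B as its single symbol, so both were not analysed here. All 8 genes are autosomal in the bovine assembly ARS-UCD2.0.

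The 20 arrays came from pools of 20 morulae produced in vitro, 5 pools in each of 4 groups: female embryos given DKK1, female controls, male embryos given DKK1 and male controls. Recombinant human DKK1 at 100 ng/ml was present for 24 h, between day 5 and day 6 after insemination, and controls received the vehicle, phosphate-buffered saline with albumin. Sex was set by fertilization with X- or Y-sorted sperm pooled over bulls, and sorting enriches for the intended sex without making it certain. Pools held compacted and non-compacted morulae without their zona pellucida, and RNA was amplified before hybridization. No source states that pools of 1 group came from separate animals, so P values measure the spread between pools. In such pools, fewer cells of a type and less RNA per cell cannot be told apart.

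Acetyltransferases such as CREBBP and KAT2A move acetyl groups to lysines of histone tails, which opens chromatin and recruits bromodomain proteins, and deacetylases remove them. Most deacetylases of class I act inside complexes: HDAC1 and HDAC2 in the Sin3, NuRD and CoREST complexes, and HDAC3 in the NCoR complex. Histone acetylation is reset while the early embryo passes from maternal to embryonic transcripts, and in mouse embryos HDAC1 is a main deacetylase of the stages before implantation. DKK1 is a secreted inhibitor of canonical WNT signalling, the pathway in which CREBBP and EP300 serve as coactivators of beta-catenin. The functions given below are those known from human and mouse.

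Values are log2 intensities, in which a difference of 1 is a change of 2-fold. They were compared with limma over the 9842 probe sets with a mean of at least 5.5, and called at an adjusted P (Benjamini-Hochberg) under 0.05, with unadjusted P under 0.05 counted separately. All 8 morula and early lineage markers (such as POU5F1, GATA6 and CDX2) had a mean above that threshold, and list means were at least 8.41 on every array. Of cumulus and granulosa cell markers 0 of 12 probe sets reached it. AMHR2 was just under it at 5.498 (4.87 to 6.07), and CYP19A1 had a mean of 4.78 but 6.55 on its highest array. Oocyte transcripts reached the threshold for 2 of 11 probe sets (ZP2 and BMP15), and sperm transcripts for 1 of 7 (TNP2). TNP1 of the sperm list was just under it at 5.48 (3.82 to 7.26).

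The array labelled male control replicate 2 stood apart. Its mean correlation with the other arrays was 0.873, against 0.913 to 0.937 for the other 19, and the SD over its probe sets was 2.11, against 2.21 to 2.30. Its XIST value was 8.81, inside the range of the female arrays (8.42 to 10.03) and above the other male arrays (6.30 to 8.22). Its value for the Y-linked gene DDX3Y was 4.82, again inside the female range (2.65 to 5.43) and below the other male arrays (6.29 to 8.36). These values go against its label. It held the highest HDAC1 value of all 20 arrays and the lowest SIRT1, SIN3A and KAT2A values, so results that rest on it are given with and without it.

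The 8 genes lay between the 46.9 and 98.1 percentiles of signal on the array. HDAC1 averaged 10.60 over the 20 arrays, at the 98.1 percentile of all probe sets. SIRT1 averaged 9.87 (96.3 percentile) and HDAC2 averaged 9.19 (94.0 percentile). SIN3A (8.05), CREBBP (7.78) and KAT2A (7.60) lay between the 84.2 and 87.6 percentiles, HDAC3 averaged 6.05 (70.1 percentile), and HDAC4 averaged 4.49 (46.9 percentile). Probes differ in how they bind, so this is an order of signal and not of transcript number. HDAC4 was below 5.5 on all 20 arrays and HDAC3 on 4 of 20, and the other 6 genes exceeded it on every array. For every gene, the ranges of groups that neighbour each other in the order of group means overlapped.

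**Figure D1:**
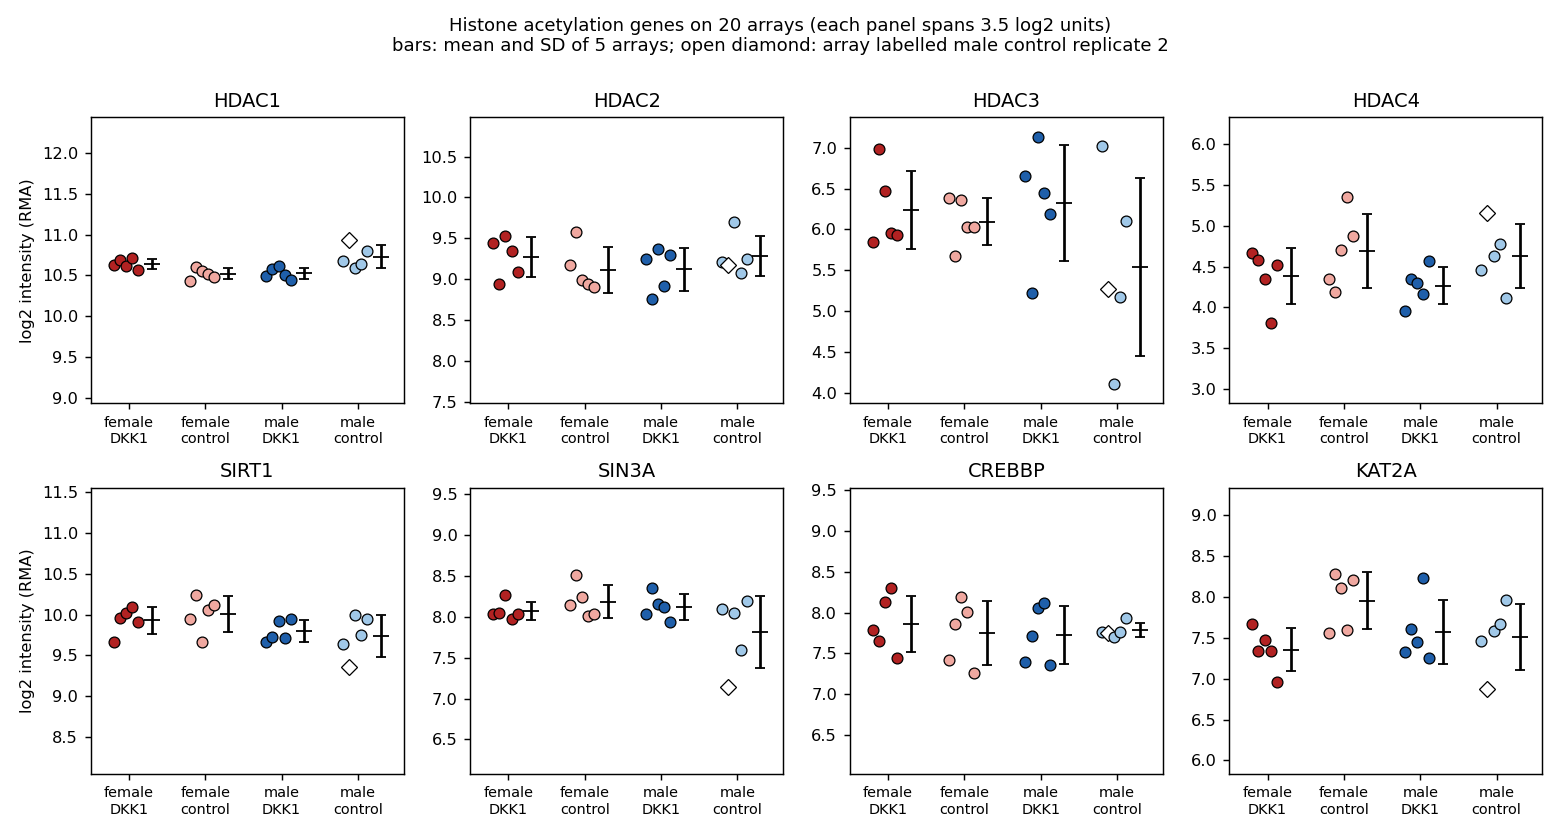
Log2 intensity (vertical axis, RMA) of the 8 genes on each array, by group, with the mean and SD of 5 arrays beside the points. HDAC1 kept within 10.44 to 10.93, HDAC3 ran between 4.11 and 7.13, and the array labelled male control replicate 2 (open diamond) lay at the edge of its group for HDAC1, SIRT1, SIN3A and KAT2A.

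The genes also differed in their spread between pools. The within-group SD of HDAC1 was 0.089, at the 1.22 percentile of 492 probe sets of similar signal (within 0.5 log2 units). The within-group SD of HDAC3 was 0.708, at the 87.3 percentile of 3022 such probe sets. SIN3A, SIRT1, CREBBP, KAT2A and HDAC2 lay at the 17.2 to 39.0 percentiles for their signal, and HDAC4 at 64.5. A given difference was therefore measured far more closely for HDAC1 than for HDAC3: the SE of the DKK1 effect was 0.069 for HDAC1 and 0.295 for HDAC3.

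**Figure D2:**
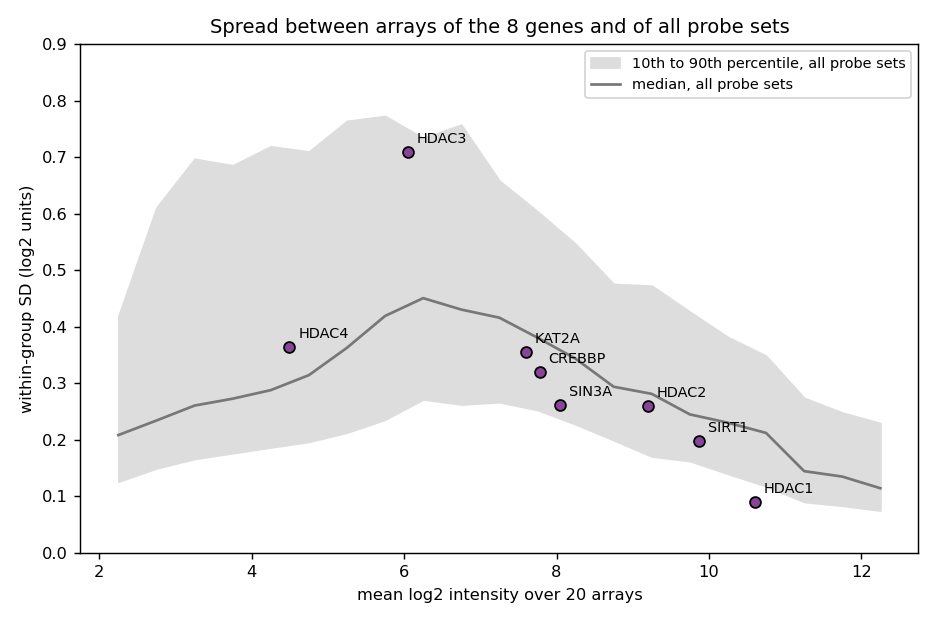
Within-group SD (vertical axis, log2 units) against mean log2 intensity (horizontal axis) of the 8 genes, over the median and the band between percentiles 10 and 90 of all probe sets in bins of 0.5 log2 units. HDAC1 (0.089) fell under the band and HDAC3 (0.708) near its upper edge.

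The first question was whether DKK1 altered these genes over morulae of both sexes. No gene passed the adjusted P: the smallest over the 7 genes of the tested set was 1.00, and 0 of 9842 probe sets passed in limma's fit, with 355 at an unadjusted P under 0.05. Median estimates were -0.00 for the 7 genes and 0.03 for all tested probe sets. By unadjusted P, 0 of the 7 were called, against a background of 2.36% of tested probe sets higher and 1.25% lower with DKK1. Estimates were positive for 3 of the 7 and negative for 4.

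HDAC4, a class IIa deacetylase that shuttles between nucleus and cytoplasm, was dimmer than the tested set and was read from the fit over all probe sets. Female embryos given DKK1 had HDAC4 values of 4.67, 4.58, 4.35, 3.80 and 4.52, against 4.34, 4.19, 4.70, 5.35 and 4.87 in female controls. Male embryos given DKK1 had 3.96, 4.35, 4.29, 4.17 and 4.57, against 4.45, 5.16, 4.63, 4.78 and 4.11 in male controls. In each sex 3 of 5 controls exceeded every DKK1 pool, and the ranges overlapped. The estimate was -0.33 (SE 0.157, 95% interval -0.66 to -0.00, unadjusted P = 0.0480), where 2.34% of all 26773 probe sets were lower at that threshold, and the adjusted P from limma with Benjamini-Hochberg was 1.00. It was -0.27 (unadjusted P = 0.0987) without the array labelled male control replicate 2, and leaving out any of 12 of the 20 arrays took the unadjusted P past 0.05. With the replicate number as a fixed block in limma, the unadjusted P was 0.0742.

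The brightest genes had the closest bounds on a DKK1 effect over both sexes. The HDAC1 estimate was -0.04 (95% interval -0.18 to 0.10), the SIRT1 estimate -0.01 (-0.22 to 0.20) and the HDAC2 estimate -0.00 (-0.26 to 0.25). For SIN3A it was 0.10 (-0.16 to 0.35) and for CREBBP 0.03 (-0.27 to 0.33). KAT2A had an estimate of -0.27 (-0.59 to 0.06) and HDAC3 one of 0.47 (-0.15 to 1.08), the widest interval of the 8. Without the array labelled male control replicate 2, KAT2A had an estimate of -0.35 (unadjusted P = 0.0273).

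The second question was whether the DKK1 effect depended on sex, and here HDAC1 and KAT2A stood out by unadjusted P. Among the 7 genes 1 had a positive and 1 a negative interaction at that threshold, against 1.98% and 2.62% of tested probe sets. Neither passed the adjusted P, and 0 of 9842 probe sets did in limma's fit, with 453 at an unadjusted P under 0.05. The median interaction was -0.14 for the 7 genes and -0.02 for all tested probe sets.

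HDAC1, the most uniform of the genes, had opposite estimates in the 2 sexes. Female embryos given DKK1 had values of 10.63, 10.69, 10.61, 10.71 and 10.56, against 10.44, 10.61, 10.55, 10.52 and 10.47 in female controls. Male embryos given DKK1 had 10.49, 10.58, 10.62, 10.50 and 10.44, against 10.68, 10.93, 10.59, 10.64 and 10.80 in male controls. Among females 4 of 5 DKK1 pools lay above every control, and among males 4 of 5 lay below every control. The groups averaged 10.64 ± 0.060 in female DKK1, 10.52 ± 0.067 in female control, 10.53 ± 0.069 in male DKK1 and 10.73 ± 0.14 in male control pools (SD, n = 5 each).

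The interaction of HDAC1, its female DKK1 effect less its male one, was 0.33 (SE 0.137, 95% interval 0.04 to 0.61, unadjusted P = 0.0274), with an adjusted P of 0.969 from limma with Benjamini-Hochberg. The effect was 0.12 in females (SE 0.097, unadjusted P = 0.219), where 2.51% of tested probe sets were higher with DKK1 at that threshold. This SE rests on limma's moderated variance. In the unmoderated linear model, which uses the spread of HDAC1 alone, the SE in females was 0.056 (unadjusted P = 0.0435). The groups are of equal size and share 1 spread, so the SE of that model is the same in males. The effect in males was -0.20 (SE 0.097, unadjusted P = 0.0487 with moderation), where 1.32% of tested probe sets were lower. Without the array labelled male control replicate 2, the interaction was 0.28 (unadjusted P = 0.0387) and the effect in males was -0.15 (unadjusted P = 0.106). The effect in males had an unadjusted P of 0.0608 in limma with the replicate number as a fixed block. The interaction kept an unadjusted P under 0.05 in each of 31 alternative analyses, and the effect in males did so in 13 of them. These differences were small in fold terms, 1.09-fold in females and 0.87-fold in males.

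KAT2A, also known as GCN5 and the acetyltransferase of the SAGA and ATAC coactivator complexes, had the lowest DKK1 estimate of the genes in female embryos. Female embryos given DKK1 had values of 7.67, 7.34, 7.47, 7.34 and 6.96, against 7.56, 8.29, 8.11, 7.59 and 8.21 in female controls. Male embryos given DKK1 had 7.32, 7.61, 7.45, 8.23 and 7.25, against 7.46, 6.87, 7.58, 7.67 and 7.97 in male controls. In females 4 of 5 DKK1 pools lay below every control, while the male groups covered much the same range.

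In females the KAT2A estimate was -0.60 (SE 0.221, 95% interval -1.06 to -0.13), or 0.66-fold, with an unadjusted P of 0.0140 and an adjusted P of 0.998 from limma with Benjamini-Hochberg. It was the 1 gene of 7 called lower in females by unadjusted P, against 1.62% of tested probe sets. In males it was 0.06 (95% interval -0.40 to 0.52). The interaction was -0.66 (SE 0.313, unadjusted P = 0.0481, adjusted P = 0.969). Without the array labelled male control replicate 2, which held the lowest KAT2A value, the interaction was -0.50 (unadjusted P = 0.101), and leaving out any of 13 of the 20 arrays took its unadjusted P past 0.05. With the replicate number as a fixed block in limma, the unadjusted P of the interaction was 0.0724. The estimate in females ran between -0.69 and -0.49 over 31 alternatives, all with an unadjusted P under 0.05. Leaving out a male array cannot change this estimate, so those alternatives test it only through its SE.

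**Figure D3:**
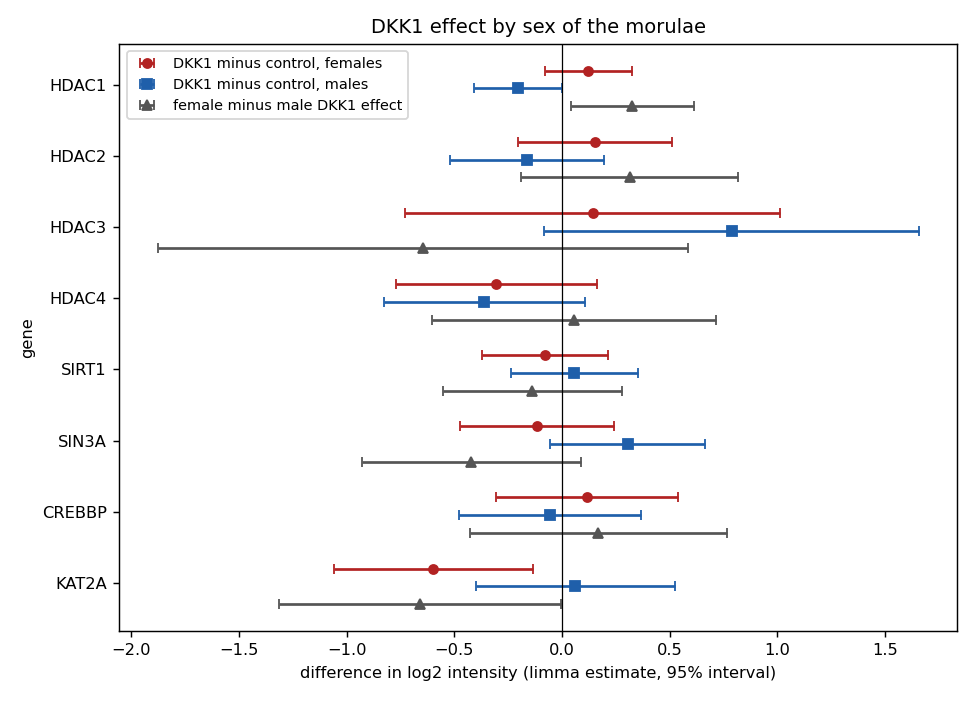
Estimated DKK1 effect in females (red circles), in males (blue squares) and their difference (grey triangles) for the 8 genes, as differences in log2 intensity (horizontal axis) with 95% intervals. The intervals that leave out 0 are those of KAT2A in females (-1.06 to -0.13) and of HDAC1 in males (-0.41 to -0.00), and the interactions of these 2 genes.

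Of the 8 genes, HDAC3 had the highest estimate in males. HDAC3, the deacetylase of the NCoR complex, had 6.65, 5.22, 7.13, 6.44 and 6.18 in male embryos given DKK1, against 7.02, 5.28, 4.11, 5.18 and 6.11 in male controls. Values in females were 5.85, 6.98, 6.47, 5.96 and 5.94 with DKK1 and 6.38, 5.67, 6.36, 6.04 and 6.03 in controls. Male controls thus held both the lowest HDAC3 value and the second highest. The estimate in males was 0.79 (95% interval -0.08 to 1.66, unadjusted P = 0.0731), and 0.72 (unadjusted P = 0.127) without the array labelled male control replicate 2. It was 1.16 (unadjusted P = 0.0059) without male control replicate 1, whose value of 7.02 was the highest of that group, and 0.43 (unadjusted P = 0.267) without male control replicate 3, whose value of 4.11 was the lowest. In males, 0 of the 7 genes were called higher at that threshold, against 2.96% of tested probe sets.

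SIN3A, which bridges HDAC1 and HDAC2 to DNA-binding repressors, had 8.04, 8.36, 8.15, 8.12 and 7.94 in male embryos given DKK1, against 8.10, 7.15, 8.05, 7.60 and 8.19 in male controls. The lowest value was that of the array labelled male control replicate 2. The estimate in males was 0.31 (unadjusted P = 0.0909) with that array and 0.14 (unadjusted P = 0.338) without it. In females it was -0.12 (95% interval -0.47 to 0.24), and the interaction was -0.42 (95% interval -0.93 to 0.09), and -0.25 (unadjusted P = 0.204) without that array.

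Among HDAC2, SIRT1 and CREBBP, the DKK1 estimate farthest from 0 in either sex was -0.16 for HDAC2 in males. HDAC2, the close relative of HDAC1, ran between 8.94 and 9.53 with DKK1 and between 8.90 and 9.58 in controls in females, and between 8.76 and 9.37 with DKK1 and between 9.07 and 9.70 in controls in males. Its estimates of 0.15 in females and -0.16 in males were each smaller than their SE of 0.171, and its interaction was 0.32 (95% interval -0.19 to 0.82). CREBBP ran between 7.45 and 8.30 with DKK1 and between 7.26 and 8.18 in controls in females, and between 7.35 and 8.12 with DKK1 and between 7.70 and 7.93 in controls in males. Male controls were closest together for CREBBP (SD 0.087), while the SD of the other 3 groups ran between 0.35 and 0.39.

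The third question was the difference between the sexes. None of the 8 autosomal genes passed either threshold for sex. Estimates were positive in 5 of the 7 tested genes, with a median of 0.11, against -0.01 for all tested probe sets. By unadjusted P the background was 3.75% of tested probe sets with a higher signal in females and 2.66% with a lower one, and 0.102% (10 probe sets) passed the adjusted P.

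SIRT1, an NAD-dependent deacetylase of histones and p53, had the smallest P for sex. Female embryos had SIRT1 values of 9.66, 9.96, 10.02, 10.09 and 9.91 with DKK1 and 9.94, 10.24, 9.67, 10.06 and 10.12 in controls. Male embryos had 9.66, 9.73, 9.93, 9.71 and 9.95 with DKK1 and 9.64, 9.36, 9.997, 9.74 and 9.94 in controls. The ranges of the sexes overlapped, with females at 9.66 to 10.24 and males at 9.36 to 9.997. The estimate was 0.20 (SE 0.099, 95% interval -0.01 to 0.41, unadjusted P = 0.0569), or 1.15-fold, with an adjusted P of 0.789 from limma with Benjamini-Hochberg. It was 0.15 (unadjusted P = 0.107) without the array labelled male control replicate 2. The unadjusted P was under 0.05 in 10 of 31 alternatives.

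To set these genes among the machinery they work with, 9 lists of other deacetylases, other acetyltransferases, complex subunits, bromodomain readers and acetyl-CoA enzymes were read from the same fit. Of 168 symbols listed, 155 had a probe set of their own and 140 probe sets of 139 genes were in the tested set, 13 of them X-linked and 127 autosomal. For sex, 10 of the 140 had a higher and 5 a lower signal in females by unadjusted P. All 10 that were higher are X-linked, which is 76.9% of the 13, and X-linked probe sets as a whole were higher at that threshold in 67% of 233. Of the 127 autosomal probe sets 0 were higher, where 2.08% of autosomal probe sets were, and 3.94% were lower, where 3.03% of autosomal probe sets were. The median sex estimate was 0.43 for the 13 X-linked probe sets and 0.44 for all 233, so these shares were near those of the X chromosome at large.

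MORF4L2, a subunit of the NuA4 acetyltransferase complex, rose in female embryos and was the 1 listed gene that passed the adjusted P. Female arrays had a median of 10.03 (9.63 to 10.17), against 9.53 (9.04 to 9.74) in male arrays. The estimate was 0.52 (SE 0.100), with an adjusted P of 0.0490 from limma with Benjamini-Hochberg. Over the alternatives the estimate ran between 0.47 and 0.56 and the adjusted P between 0.0173 and 0.105, under 0.05 in 7 of 31. It was 0.55 (adjusted P = 0.0327) without the array labelled male control replicate 2, while leaving out any of 16 of the 20 arrays left 0 listed genes past the adjusted P.

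Partners and relatives of the 8 genes were among the X-linked probe sets. RBBP7, a histone-binding subunit shared by the Sin3 and NuRD complexes that hold HDAC1, had a median of 10.23 (10.09 to 10.57) on female arrays, against 9.73 (9.55 to 10.10) on male arrays. Its estimate was 0.43 (SE 0.087, adjusted P = 0.0650). ZMYM3, a subunit of the CoREST complex, had 6.23 (5.81 to 6.96) in females, against 5.55 (4.68 to 6.08) in males, with an estimate of 0.86 (SE 0.170, adjusted P = 0.0605). HDAC8, the class I deacetylase that acts on cohesin, had 9.01 (8.63 to 9.37) in females, against 8.42 (8.21 to 8.97) in males, an estimate of 0.49 (SE 0.121). HDAC6, a mainly cytoplasmic tubulin deacetylase, had an estimate of 0.41 (SE 0.120). Without the array labelled male control replicate 2, RBBP7 had an estimate of 0.40 (adjusted P = 0.0429) and ZMYM3 one of 0.82 (adjusted P = 0.0499) in limma with Benjamini-Hochberg. The female and male ranges overlapped for each of these genes.

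The other X-linked genes higher in females by unadjusted P were MSL3 of the MSL acetyltransferase complex (0.62), BRWD3 with its bromodomains (0.53), PDHA1 of pyruvate dehydrogenase (0.41), the glycosyltransferase OGT (0.36) and its partner HCFC1 (0.31). JADE3 (0.60, unadjusted P = 0.0572), TAF9B (0.20) and TBL1X (0.03) were the X-linked genes that were not called. Lower in females among autosomal probe sets were JADE1 (-0.52) and ING4 (-0.43), both from the list of NuA4, MOZ, MSL and NSL subunits. The others were the Sin3 subunit ARID4A (-0.43), the helicase subunit RUVBL1 (-0.33) and the bromodomain protein BRD9 (-0.29). None of these passed the adjusted P. The unadjusted P was under 0.05 for JADE1 in 31 of 31 alternatives, RUVBL1 in 22 of 31 and ING4 in 16 of 31. It was so for ARID4A in 23 of 30 and BRD9 in 17 of 30. With the array labelled male control replicate 2 left out, the unadjusted P of PDHA1 was 0.0564 (estimate 0.33), that of ARID4A was 0.0562 (-0.40) and that of BRD9 was 0.05004 (-0.29), so these 3 were not called.

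**Figure D4:**
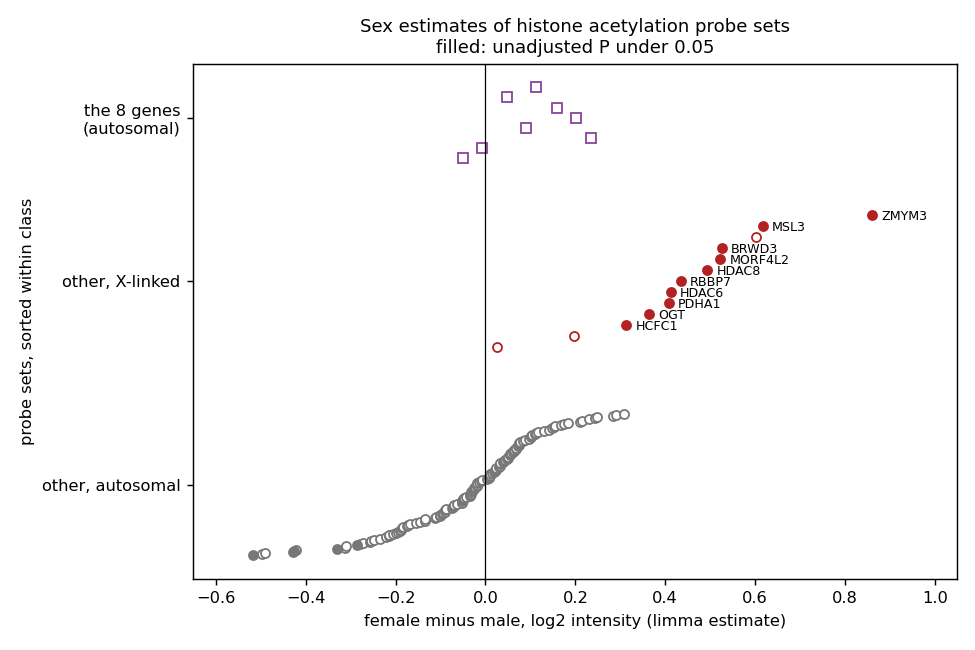
Female minus male estimates (horizontal axis, log2 intensity) of the 8 genes (squares), the 13 other X-linked and the 127 other autosomal acetylation probe sets, sorted within each class, filled where the unadjusted P was under 0.05. The 10 filled X-linked points lie between 0.31 and 0.86, the 5 filled autosomal points are negative, and none of the 8 genes is filled.

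By list, all calls higher in females were X-linked. The calls for sex fell on 2 of 9 other deacetylases, 2 of 11 Sin3 subunits (1 higher and 1 lower in females), 1 of 9 NuRD subunits, 1 of 13 CoREST and NCoR subunits, 7 of 31 subunits of the NuA4, MOZ, MSL and NSL complexes (4 higher and 3 lower), 2 of 16 bromodomain readers (1 higher and 1 lower) and 1 of 7 acetyl-CoA enzymes, with RBBP7 counted in 2 lists. The 20 probe sets of other acetyltransferases, none of them X-linked, and the 25 of SAGA and ATAC subunits, 1 of them X-linked, had 0 calls for sex. The background was 3.75% of tested probe sets higher and 2.66% lower in females.

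For DKK1 over both sexes, 3 of the 140 listed probe sets were higher and 3 lower by unadjusted P (2.14% each), against 2.36% and 1.25% of tested probe sets, 0 passed the adjusted P, and the median was 0.03. Higher were EPC1 of the NuA4 complex (0.30, SE 0.123) and 2 subunits of KAT2A's complexes, SUPT20H of SAGA (0.28, SE 0.119) and MBIP of ATAC (0.23, SE 0.106). Lower were BRD3, a BET-family reader of acetylated histones (-0.31, SE 0.112), CRAT (-0.33, SE 0.140), which makes acetylcarnitine from acetyl-CoA, and MIER3, which recruits HDAC1 and HDAC2 (-0.41, SE 0.180). BRD3 had 6.16 to 6.58 on the 10 DKK1 arrays, against 6.35 to 7.27 on the 10 control arrays. Its effect was -0.48 in females (SE 0.158) and -0.14 in males (SE 0.158), and the interaction of -0.34 had an unadjusted P of 0.148. The unadjusted P was under 0.05 for BRD3 in 31 of 31 alternatives, EPC1 in 30 of 31, SUPT20H and MIER3 in 24 of 31 each, CRAT in 26 of 30 and MBIP in 13 of 31. SUPT20H had an estimate of 0.25 (unadjusted P = 0.0537) without the array labelled male control replicate 2.

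For the interaction, 4 of the 140 were positive (2.86%) and 3 negative (2.14%) by unadjusted P, against 1.98% and 2.62% of tested probe sets, with a median of 0.00, and 0 passed the adjusted P. HDAC6 averaged 6.99 ± 0.30 in female DKK1, 6.36 ± 0.37 in female control, 6.17 ± 0.16 in male DKK1 and 6.36 ± 0.089 in male control pools (SD, n = 5 each). Its DKK1 effect was 0.62 in females and -0.19 in males, an interaction of 0.81 (SE 0.240, unadjusted P = 0.0032). ELP3, the catalytic subunit of Elongator, had an effect of 0.25 in females and -0.34 in males, an interaction of 0.59 (SE 0.192). ARID4A, a Sin3 subunit, had an interaction of 0.92 with the SE at 0.376, and BRWD3 one of 0.52 with the SE at 0.244. Without the array labelled male control replicate 2, limma gave 0.82 for HDAC6 and 0.59 for ELP3. It gave 0.87 for ARID4A (unadjusted P = 0.0395) and 0.53 for BRWD3 (unadjusted P = 0.0498). The unadjusted P was under 0.05 for HDAC6 in 30 of 30 alternatives, ELP3 in 31 of 31, ARID4A in 29 of 30 and BRWD3 in 18 of 31.

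Subunits of NuRD, another complex of HDAC1 and HDAC2, were among the negative ones. MTA2 averaged 7.08 ± 0.17 in female DKK1, 7.34 ± 0.20 in female control, 7.34 ± 0.15 in male DKK1 and 7.06 ± 0.16 in male control pools (SD, n = 5 each), an interaction of -0.54 with the SE at 0.181. MBD3 had an interaction of -0.62 and TADA1, a SAGA subunit, one of -0.81. Without the array labelled male control replicate 2, MTA2 had an interaction of -0.48 (unadjusted P = 0.013), MBD3 one of -0.56 (unadjusted P = 0.053) and TADA1 one of -0.60 (unadjusted P = 0.074). Of the 9 NuRD probe sets tested 2 were negative at that threshold, and the median of the 9 was positive (0.18).

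**Figure D5:**
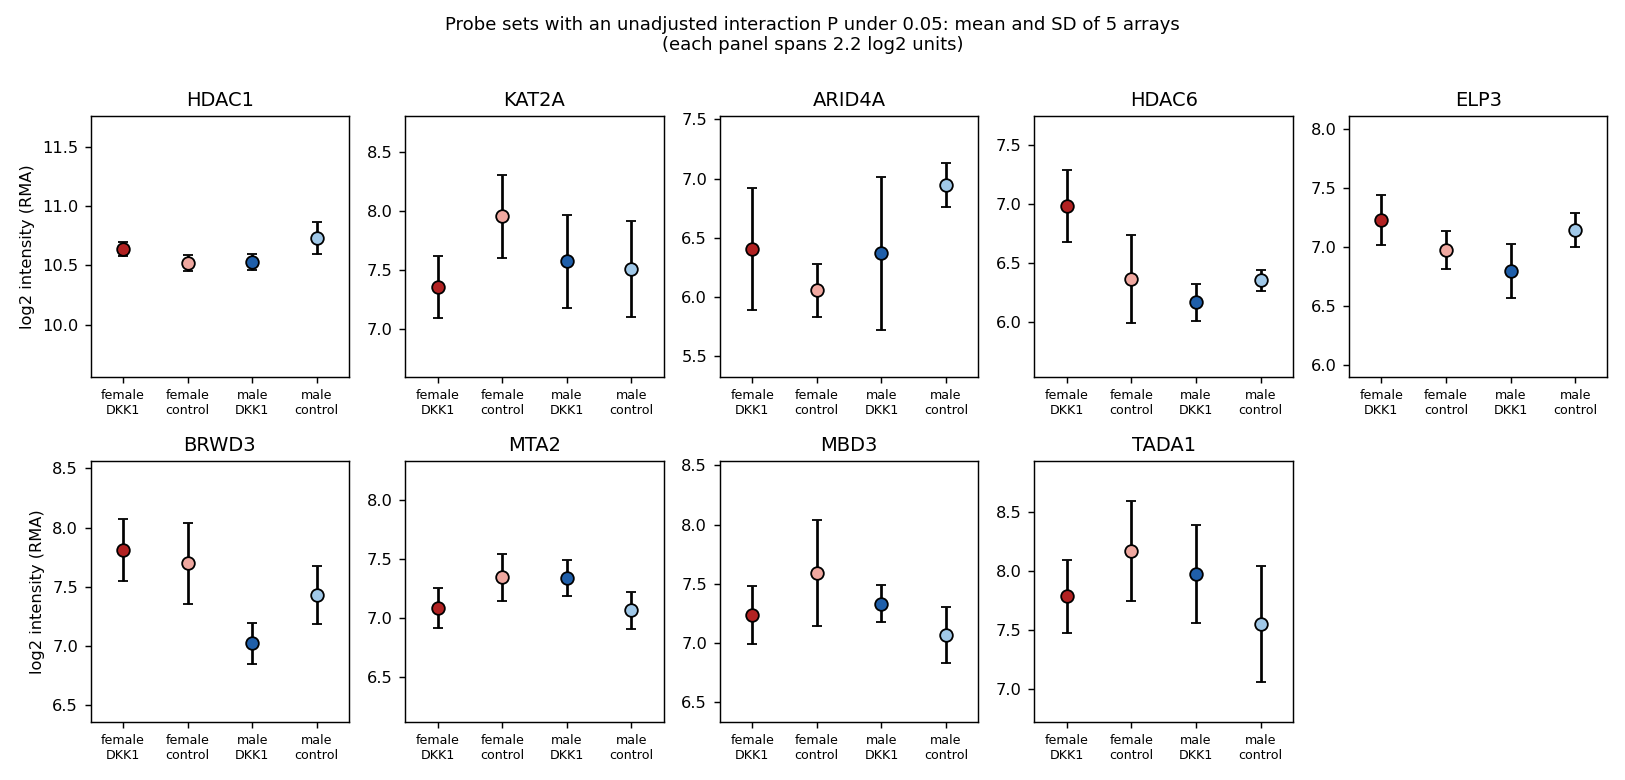
Mean and SD of 5 arrays (vertical axis, log2 intensity) by group for the 9 acetylation genes with an unadjusted interaction P under 0.05. The panels were chosen by that P, and none of the 9 passed the adjusted P. In males the KAT2A means of DKK1 and control pools differed by 0.06 (SE 0.221), and by -0.10 without the array labelled male control replicate 2.

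Across the 20 arrays, HDAC1 and HDAC2, the 1 pair of close relatives of which both genes were measured, had a Pearson r of 0.17 (permutation P = 0.469, two-sided) and a Spearman rho of 0.26 (permutation P = 0.260). Without the 2 arrays farthest from the median of HDAC1 the r was 0.26, and within groups it ran between -0.45 and 0.56. After the group means were taken out, the r of this pair was -0.09, and the r between any 2 of the 8 genes ran between -0.60 (HDAC4 with SIN3A) and 0.57 (SIN3A with KAT2A), with a median of -0.01 over 28 pairs. These correlations are descriptions over arrays that share amplification and scaling.

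The named probe set with the most similar deviations from group means was, among 7560 candidates (7561 for HDAC4), SUGP2 for HDAC1 (r = 0.82), USP30 for HDAC2 (0.80), PSRC1 for HDAC3 (0.81) and SOS1 for SIRT1 (0.83). For SIN3A it was CLPX (0.86), for CREBBP USP2 (0.85), for KAT2A ZBTB2 (0.83), and for HDAC4 PENK (0.80). Each r is the highest of all these candidates over 20 arrays. Without the array labelled male control replicate 2, r was 0.71 for HDAC1 with SUGP2 and 0.75 for SIN3A with CLPX, while CREBBP with USP2 kept 0.85.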

How the data were processed

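RNA from 20 pools of morulae was hybridized to Affymetrix whole-transcript bovine arrays, each pool to its own array. As deposited, values are log2 intensities per probe set and array, which the authors made with robust multi-array average (RMA, with quantile normalization) in Affymetrix Expression Console, versions not given in the sources used here. No further normalization was applied, and the number of arrays limits the precision. Groups followed the sex and treatment labels.

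Genes were matched through the array annotation, by probe sets with 1 symbol. Differences between groups came from limma 3.58.1 in R 4.3.3 (a model of the 4 group means, moderated variances, two-sided), with Benjamini-Hochberg adjustment over the 9842 probe sets with a mean of at least 5.5, of which 7561 have 1 symbol, 372 several and 1909 none. HDAC4 was read from the fit over all 26773. Each SE and 95% interval comes from the fit its gene was read from, that of the tested set for all but HDAC4. The code was tested on simulated data. Figures used Python 3.11.15 and matplotlib 3.10.9.

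The genes and lists were chosen with earlier results of these data known. Named are the 10 genes, every listed gene with an unadjusted P under 0.05 for DKK1, sex or the interaction, examples of markers, and the most similar probe set of each gene. Alternatives were a replicate block, other variance models and weights, other thresholds and scalings, averaged probe sets and leaving out each array.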

Additional observations from a re-analysis of the deposited data

Results flagged for a closer look

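Among 32 groups of 5 arrays (8 genes in 4 groups), 3 had a highest value set off from the rest of its group by more than Dixon's 95% critical value of 0.71 of the group's range. They were HDAC2 in male control replicate 3 (9.70), SIN3A in female DKK1 replicate 3 (8.26) and CREBBP in male control replicate 5 (7.93). Chance marks about 1 in 20 groups.

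The female DKK1 effect less the male one had an unadjusted P under 0.05 in limma for 9 of 148 probe sets, and none passed Benjamini-Hochberg adjustment. Over all tested probe sets 453 of 9842 were under that threshold (1.98% positive and 2.62% negative), so the count is near the background. The differences were 0.33 for HDAC1, -0.66 for KAT2A, 0.81 for HDAC6, 0.59 for ELP3, 0.92 for ARID4A, -0.54 for MTA2, -0.62 for MBD3, -0.81 for TADA1 and 0.52 for BRWD3.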

How the results depend on the processing

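Counts of the 8 genes with an unadjusted P under 0.05 (all 20 arrays: DKK1 1, sex 0, interaction 2, DKK1 in females 1, in males 1) and of the 140 listed probe sets moved with the analysis. Counts under the alternatives are given without the share of all tested probe sets under the same alternative. They therefore do not compare these genes or lists with other probe sets. None of the 8 genes passed the adjusted P for any of the 5 comparisons in any of the 31 alternatives, and no called estimate changed sign. Estimates smaller than their SE were given no direction.

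With the replicate number as a fixed block, the counts of the 8 genes were 0 for DKK1, 1 for the interaction and 0 for DKK1 in males, as the unadjusted P was 0.0742 for HDAC4, 0.0724 for the KAT2A interaction and 0.0608 for HDAC1 in males. Listed probe sets higher with DKK1 were 5, against 3 without the block, negative interactions 5 against 3, and those passing the adjusted P for sex 0 against 1. Deviations of arrays with the same number correlated between -0.18 and 0.14 (median 0.02), above 0.1 in 2 of 30 pairs. Those of arrays with other numbers had a median of -0.003 and were above 0.1 in 3 of 120 pairs. Of 20 arrays, 12 correlated best with an array of their own number, though same-number pairs were only 30, against 120 of other numbers. That is more arrays than this share of pairs alone would give. The methods describe 5 replicates and place replicate in the model of embryonic development, but not in that of the arrays. No label ties a number to a shared procedure, so whether the pools are paired could not be settled, and the main fit holds no block.

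Without moderation, the counts of the 8 genes were 0 for DKK1, 1 for sex, 1 for the interaction and 2 for DKK1 in females, and the lists had 5 higher with DKK1 and 2 adjusted for sex. The intensity trend gave 1 gene for sex, 1 for the interaction and 3 listed adjusted for sex. Array weights gave 1 gene for the interaction, and in the lists 5 lower with DKK1, 9 lower in females, 3 adjusted for sex and 11 positive interactions. Without a threshold there were 1 gene for sex, and in the lists 5 higher with DKK1, 10 lower in females and 0 adjusted for sex. A mean of at least 4.8 gave 0 adjusted for sex, and one of at least 6.5 gave 5 higher with DKK1 and 2 adjusted for sex. Centred arrays gave 2 genes for DKK1, 1 for sex, 1 listed higher with DKK1 and 7 positive interactions. Quantile normalization gave 1 gene for sex, and in the lists 1 higher with DKK1, 0 adjusted for sex and 7 positive interactions. A random replicate block (correlation 0.0112) and averaged probe sets moved no count by over 1.5 times. The causes were not tested.

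Leaving out each array, counts of the 8 genes ran 0 to 2 for DKK1, 0 to 1 for sex, 1 to 3 for the interaction and 0 to 3 for DKK1 in males. Listed probe sets ran 1 to 5 higher and 1 to 5 lower with DKK1, 1 to 8 lower in females, 0 to 3 adjusted for sex, 3 to 7 positive and 1 to 5 negative interactions. Signal limits HDAC4 (below 5.5 on all 20 arrays) and HDAC3.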
